A study of Rattus norvegicus with 60 samples.

Results

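Collagen genes were taken as every protein-coding row of the deposited expression table whose symbol is Col, a number, a and a number. The rule gave 43 rows with 42 symbols (Col23a1 has 2 rows) among 32545 genes. They comprise 11 fibrillar, 5 basement membrane and 27 other collagens. They were measured by poly(A) RNA sequencing of 60 libraries, taken from kidney cortex or outer medulla. The rats were wild-type Dahl salt-sensitive animals (SS) or a line bred from that strain in which NOX4, an enzyme that makes hydrogen peroxide, is knocked out (NOX4). In each strain and tissue there were 5 libraries from control conditions (LS) and 5 each after 7 days (HS7) and 21 days (HS21) of a diet with 4% NaCl, which makes 12 groups. Both strains share the salt-sensitive background, on which a salt diet raises blood pressure. The labels give no sex, age, salt content of the control diet or mapping of libraries to animals, so the p-values measure the spread between libraries. They describe neither the knockout allele nor the cells that carry it.

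Collagens are secreted proteins built from chains that wind into a triple helix. Fibrillar collagens (types I, III, V and others) form the fibers of the interstitium and are made mainly by fibroblasts and pericytes. Type IV collagens form the sheet-like network of basement membranes: Col4a1 and Col4a2 encode the chains found under nearly every epithelium and vessel, whereas Col4a4 and Col4a5 encode chains of the mature glomerular and some tubular basement membranes. The other types decorate fibrils (Col12a1, Col14a1, Col16a1), form beaded filaments (type VI) or short-chain networks (type VIII), span the cell membrane (Col13a1, Col17a1) or sit in basement membranes as collagen and proteoglycan hybrids (Col15a1, Col18a1). Excess interstitial collagen is the hallmark of renal fibrosis, which accompanies hypertension in this rat.

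Of the members called lower in NOX4 than in SS after 21 days of salt in both tissues, promoters are shown for those whose single start site in the RefSeq table lies at the edge of the gene (Col4a2, Col5a2 and Col6a1). Col4a1 and Col4a2 are transcribed away from each other from starts 76 bases apart, so the whole stretch between them is shown. The other sequences are the 150 bases before the start. The sequences are RefSeq's for the GRCr8 assembly and run 5′ to 3′ on the strand given. Capitals mark 3 promoter motifs searched on both strands: the CCAAT box, the TATA box (TATAAA) and the GC box (GGGCGG). A single GC box, on the opposite strand, lies in these stretches. The first is chr16:84885521-84885596 (plus strand), the second chr9:55090152-55090301 (minus strand) and the third chr20:11905540-11905689 (plus strand).
Col4a2 to Col4a1: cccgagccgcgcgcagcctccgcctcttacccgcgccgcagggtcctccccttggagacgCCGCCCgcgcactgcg
Col5a2: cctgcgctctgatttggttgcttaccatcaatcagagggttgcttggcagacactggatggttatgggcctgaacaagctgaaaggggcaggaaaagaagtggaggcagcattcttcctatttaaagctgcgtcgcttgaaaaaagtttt
Col6a1: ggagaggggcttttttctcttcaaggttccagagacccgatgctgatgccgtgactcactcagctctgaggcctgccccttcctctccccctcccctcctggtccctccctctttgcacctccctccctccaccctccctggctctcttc

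The table of promoters held 33 of the 42 symbols, with 36 promoters from 250 bases before to 50 bases after the start. Motifs were searched only in the 250 bases before the start. The GC box occurred in 7 of 10 fibrillar, 4 of 5 basement membrane and 8 of 21 other collagen promoters. It occurred in 30.5% of all 33469 promoters of the same extent, searched alike. The CCAAT box occurred in 3 of 10, 2 of 5 and 7 of 21 (34.0% of all), and the TATA box in 1 of 10, 0 of 5 and 3 of 21 (12.9%). These are matches of letters and not evidence of binding. The type IV genes lie in head-to-head pairs: 412 bases separate Col4a4 and Col4a3 on chromosome 9 and 1263 bases separate Col4a6 and Col4a5 on chromosome X.

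In the deposited coordinates, whose genome build is not given in the sources used here, Col4a2 (ENSRNOG00000023972) lies at 83387364 to 83438561 on chromosome 16 (minus strand) and Col4a1 (ENSRNOG00000016281) at 83522162 to 83632153 (plus strand). On these strands Col4a2 starts at 83438561 and Col4a1 at 83522162, farther apart than the 76 bases between the RefSeq starts. Why the annotations differ was not tested, and the counts and FPKM here rest on the deposited rows. Col3a1 (52023295 to 52059217, plus strand) and Col5a2 (52092511 to 52238564, minus strand) are neighbours on chromosome 9. Col18a1 (12225202 to 12332858), Col6a1 (12658065 to 12675561) and Col6a2 (12773427 to 12801180) follow each other on the plus strand of chromosome 20. Col1a1 lies at 82745801 to 82762789 on chromosome 10 and Col1a2 at 31534225 to 31569151 on chromosome 4. Col6a3, deposited as a processed transcript, and a row described as type IV alpha-3-like next to Col4a4 are outside the rule and are not counted.

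Library totals ran from 11.5 to 29.6 M counts. Nox4 checked the labels: in cortex it ran from 281 to 604 CPM (counts per 1000000 counts of the library) in SS and from 61.2 to 86.8 CPM in NOX4, and in outer medulla from 5.44 to 100.1 against 1.65 to 13.6 CPM. The strains did not overlap in cortex but did in outer medulla. Among the libraries, 11 SS libraries at LS or HS7 held fewer detected genes and are called low-complexity here (14090 to 16119 when thinned to 10000000 counts, against 16922 to 18385 in the other 49). The library names number every SS library before any NOX4 library, so library order and strain cannot be told apart. Within SS the names also run diet by diet, with LS first and HS7 next. Library order and diet therefore cannot be told apart in the SS salt comparisons either. The NOX4 names follow the diets too, apart from some HS7 cortex libraries that stand outside the number sequence. Markers of proximal tubule segments 1 and 2, a cortical structure, summed to 5772 to 13120 CPM in cortex libraries. SS HS7 outer medulla replicate 3, a low-complexity library, stood apart, at 4290 CPM, where the other groups of outer medulla reached at most 2552 CPM. The sums also differed by strain in outer medulla. At LS they ran from 31.3 to 263.9 CPM in SS and from 390.3 to 1584 CPM in NOX4, without overlap. At HS7 they ran from 82.74 to 4290 and from 553.1 to 2552 CPM. At HS21 they ran from 81.24 to 884.8 and from 359.3 to 1490 CPM. The part of this in the collagen differences between the strains was not tested. In whole tissue, fewer cells of a type and less RNA per cell cannot be told apart.

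Per gene length, Col4a1 was the most abundant collagen transcript in both tissues, at 118 FPKM (the deposited level, scaled to gene length and library size) on average in cortex and 174 in outer medulla. In cortex it was followed by Col4a4 (93.6 FPKM), Col4a2 (80.6), Col3a1 (60.5), Col18a1 (51.9) and Col1a1 (26.2). In outer medulla Col3a1 (155 FPKM), Col4a2 (126), Col18a1 (111.0) and Col1a1 (68.8) stood ahead of Col4a4 (49.1). In SS outer medulla at HS21 Col3a1 reached 316 ± 99.5 FPKM and Col4a1 278 ± 66.2 FPKM (SD, n = 5). Both come from the same 5 libraries, and their difference was not tested. A mean of at least 1 FPKM in a tissue was reached by 28 members, and 15 stayed under it in both. A filter on low counts left 36 members to test in cortex, 35 in outer medulla and 38 over both tissues, and 5 members entered no test (both Col23a1 rows, Col9a3, Col19a1 and Col25a1).

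**Figure D1:**
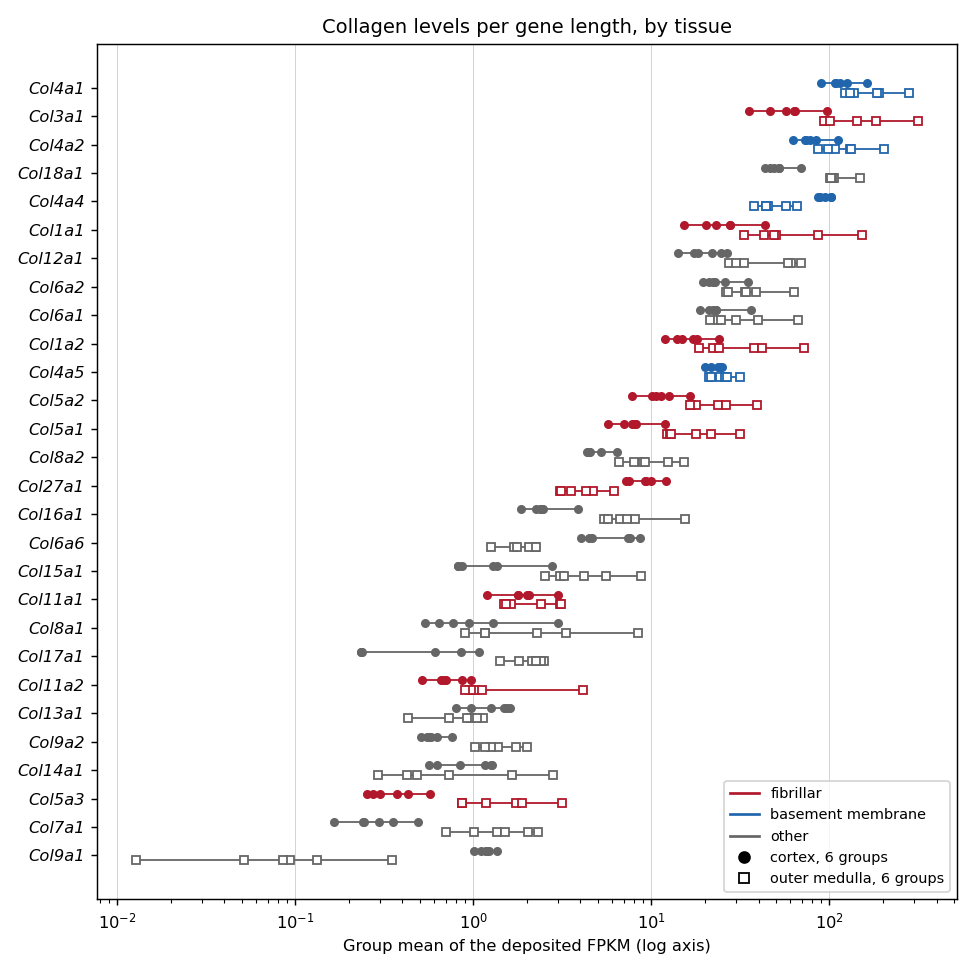
Group means of the deposited FPKM (log axis) for the 28 collagen members with a mean of at least 1 FPKM in a tissue; each symbol is the mean of 5 libraries, filled circles are the 6 cortex groups and open squares the 6 outer medulla groups, and colour gives the class. Averaged over the groups of a tissue, Col4a1 is highest in both, Col4a4, Col27a1, Col6a6, Col13a1 and Col9a1 have the higher mean in cortex, and the others in outer medulla.

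Most collagens were higher in outer medulla than in cortex. Averaged over the 6 groups of each tissue, 22 of 38 tested members were higher in outer medulla and 9 lower at an adjusted p under 0.05 (edgeR's quasi-likelihood test with Benjamini-Hochberg adjustment over all genes tested, called below), where 71.6% of all tested genes were called (37.6% higher and 34% lower). The median log2 difference was 0.56 over the members and 0.03 over all genes. Of 11 fibrillar members, 7 were higher: Col3a1 by 1.25 ± 0.12 (adjusted p = 6.46e-14), Col1a1 by 1.23 ± 0.13 (adjusted p = 1.06e-12) and Col5a1 by 1.07 ± 0.09 (adjusted p = 8.72e-16) on the log2 scale (± SE). Col4a1 (0.49 ± 0.09) and Col4a2 (0.59 ± 0.08) were higher as well. Their basement membrane relative Col4a4 went the other way, at -0.98 ± 0.06 (adjusted p = 2.95e-20). Its 30 outer medulla libraries did not overlap the 30 cortex libraries, and the share of all genes without overlap was not counted. Podocytes make type IV chains of this kind, and 7 of 9 podocyte markers were lower and 1 higher in outer medulla. Col4a5, a chain of the same membranes, averaged 23.1 FPKM in cortex and 25.1 FPKM in outer medulla. The part of podocytes in the Col4a4 value was not tested. Col6a6, a type VI chain, and Col9a1, a chain of cartilage-type fibril-associated collagen, were lower by -1.69 ± 0.14 and -3.84 ± 0.27, and Col27a1, a fibrillar chain, by -1.20 ± 0.11.

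In SS rats, several collagen transcripts were higher after 21 days of salt than at LS in both tissues. In cortex 10 of 36 tested members were called higher and 0 lower, where 16.5% of all tested genes were called (8.42% higher and 8.04% lower). In outer medulla 10 of 35 were higher and 1 lower, against 9.86% of all genes called (5.29% higher and 4.56% lower). The members' median log2 fold change was 0.43 in cortex and 0.62 in outer medulla, beside 0.01 and 0.02 over all genes. Without SS HS21 replicate 3 the cortex count was 6. In outer medulla the count of 11 was 7 without SS HS21 replicate 1 or 2 or SS LS replicate 5 and 6 without SS HS21 replicate 4. Called higher in both tissues were Col6a1, Col6a2, Col8a1, Col15a1, Col16a1 and Col18a1, of which none is fibrillar or a type IV chain. The least stable of the called members were Col4a1 and Col24a1 in cortex and Col15a1 in outer medulla, each lost under 10 of 17 alternatives, followed in outer medulla by Col6a2 (lost under 8), Col18a1 (7) and Col16a1 (6).

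Markers of other cell types moved in the same comparison. Macrophage markers (8 genes) summed to between 191.9 and 251 CPM at LS and between 261.5 and 351 CPM at HS21 in SS cortex, without overlap. In SS outer medulla they summed to between 408.9 and 734.8 and between 505.3 and 915.5 CPM. Called higher were 3 of 7 in cortex (C1qa, Cd68 and Csf1r) and 2 of 7 in outer medulla (C1qa and Adgre1), and Cd163 was at 0 in some libraries. Fibroblast and stroma markers summed to between 875 and 1071 and then 1044 and 1404 CPM in cortex, with 2 of 11 higher (Fbln1 and Vim). In outer medulla they summed to between 1476 and 2041 and then 1575 and 2597 CPM, with 2 of 11 higher (Postn and Fbln1). Postn, Lum, Mfap5 and Gli1 were at 0 in some LS libraries. Smooth muscle markers had 2 of 8 higher in cortex (Des and Tagln) and 3 of 8 in outer medulla (Cnn1, Acta2 by 1.77 ± 0.27 and Tagln by 1.10 ± 0.25), where their sums went from 429.7 to 692 CPM at LS and from 507.3 to 959.7 CPM at HS21. Thick ascending limb markers summed to between 13430 and 17470 CPM in outer medulla at LS and between 8725 and 12090 CPM at HS21, without overlap, but 0 of 5 were called. In cortex 2 of 5 were lower (Slc12a1 and Cldn16) and 1 higher. Proximal tubule segment 3 markers summed to between 5552 and 9010 CPM in cortex at LS and between 2637 and 5149 CPM at HS21, with 2 of 7 lower (Slc3a1 and Slc6a18). The part of these in the collagen values was not tested.

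Among fibrillar collagens, Col1a1, Col3a1 and Col5a3 rose in outer medulla. Col1a1, the main chain of type I collagen, was 239.9, 276, 375, 291 and 255 CPM in the SS LS outer medulla libraries, in the order of their replicate numbers. At HS7 it was 659.6, 624, 169.6, 433 and 585 CPM and at HS21 1106, 839, 800.4, 1233 and 433 CPM. All HS21 libraries exceeded all LS libraries, with a log2 fold change of 1.58 ± 0.33 (adjusted p = 0.00362). Col3a1, the type III chain, was 594, 532, 919, 643 and 670.1 CPM at LS and 1666, 1532, 1443, 2065 and 795 CPM at HS21. The ranges met because HS21 replicate 5 lay below LS replicate 3, and the log2 fold change was 1.12 ± 0.29 (adjusted p = 0.0148). Without SS HS21 replicate 4 it was 1.00 (adjusted p = 0.052). Col5a3 rose by 1.84 ± 0.37 (adjusted p = 0.00224). Col1a2, which supplies the second kind of chain of type I collagen, was 141, 69.4, 245, 191 and 183 CPM at LS and 466, 315, 399, 271 and 159 CPM at HS21. That difference, 0.93 ± 0.46 (adjusted p = 0.211), was not past the threshold.

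In cortex the fibrillar calls were Col5a1, a minor chain that nucleates fibrils, and the weakly expressed Col24a1. Col5a1 rose from 53.7 ± 6.66 to 79.6 ± 10.8 CPM (SD, n = 5), a log2 fold change of 0.55 ± 0.14 (adjusted p = 0.009). Col1a1 was 149, 157, 198, 138 and 179 CPM at LS and 276, 299, 282, 238 and 192 CPM at HS21 in SS cortex. Only HS21 replicate 5 reached into the LS range, and the difference of 0.63 ± 0.26 (adjusted p = 0.0939) missed the threshold. Col3a1 likewise was at 255, 283, 369, 278 and 343 CPM and then 503, 514, 551, 433 and 348 CPM, a difference of 0.60 ± 0.26 (adjusted p = 0.113).

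The basement membrane chains split. Col4a1 was 709, 786, 776, 744 and 799.5 CPM in SS cortex at LS and 984, 1209.8, 1272, 1129 and 877 CPM at HS21. Col4a2 was 354, 385, 406, 415 and 388 CPM at LS and 498, 632, 619.8, 586 and 482 CPM at HS21. For both chains every HS21 library lay above every LS library, with log2 fold changes of 0.50 ± 0.17 (adjusted p = 0.0379) and 0.52 ± 0.12 (adjusted p = 0.00415). The Col4a2 call held under all 17 alternatives, whereas the adjusted p of Col4a1 lay between 0.0523 and 0.104 without SS HS21 replicate 2, 3 or 4 or any 1 of the LS libraries. In outer medulla the same chains differed by 0.52 ± 0.24 (adjusted p = 0.175) and 0.62 ± 0.26 (adjusted p = 0.126), within the spread there. Their ratio per gene length stayed between 1.17 and 1.70 in cortex libraries and between 1.19 and 1.89 in outer medulla libraries, whereas that of Col1a1 to Col1a2 ran from 1.07 to 5.95 in outer medulla.

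Col4a4 did not follow them. In SS cortex it was 939, 1032, 827, 913 and 1225 CPM at LS and 961, 932, 879.6, 991 and 1108 CPM at HS21, a log2 fold change of -0.03 ± 0.12 (adjusted p = 0.875). In SS outer medulla it was 706, 750.4, 655, 725 and 732 CPM at LS, 590.4, 577, 361, 420.4 and 490.0 CPM at HS7 and 378, 481, 476, 310.1 and 417 CPM at HS21. Every library after salt lay below every LS library, and at HS21 Col4a4 had fallen by 0.82 on the log2 scale (SE 0.18, adjusted p = 0.00491). The ratio of Col4a1 to Col4a4 per gene length in SS outer medulla was accordingly 2.90 ± 0.56 at LS and 7.69 ± 2.96 at HS21. Of 9 podocyte markers 2 fell (Plce1 and Podxl) and 1 rose in this comparison, and of 8 endothelial markers 3 fell (Flt1, Emcn and Tek). Summed podocyte markers ran from 306 to 392 CPM at LS and from 279.7 to 364 CPM at HS21, and summed endothelial markers from 524 to 703 and from 489 to 547 CPM. The part of either in the Col4a4 value was not tested.

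Of the other types, 6 of 20 tested members rose in SS cortex and 7 of 20 in SS outer medulla. Col6a2 was 85.4, 53, 91, 87.2 and 80.9 CPM in cortex at LS and 132, 137, 144, 128 and 117 CPM at HS21, without overlap, and rose by 0.71 ± 0.16 (adjusted p = 0.00287). In outer medulla it was 104, 114, 172, 124 and 96.1 CPM at LS and 262, 233, 236, 293 and 142 CPM at HS21, and rose by 0.90 ± 0.28 (adjusted p = 0.039). Its partner chain Col6a1 rose by 0.69 ± 0.14 (adjusted p = 0.00178) and 1.13 ± 0.27 (adjusted p = 0.0102). Col8a1, a short-chain collagen of vessel walls, had the largest fold change in cortex: it was 1.65, 3.36, 2.91, 1.01 and 2.9 CPM at LS and 11.2, 12.7, 16.9, 15.2 and 10.04 CPM at HS21. It rose there by 2.46 ± 0.35 (adjusted p = 4.05e-05) and in outer medulla by 2.83 ± 0.40 (adjusted p = 0.000128). Col8a2, which shares its network, did not pass the test in either tissue (0.50 ± 0.23 and 0.27 ± 0.28).

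Col18a1, the source of endostatin, was 249.99, 236, 320.0, 281 and 233 CPM in SS cortex at LS and 357, 367, 384, 373 and 288 CPM at HS21. In outer medulla it was 472, 485, 620.0, 549 and 449 CPM and then 801, 785, 735, 793 and 611 CPM. It rose by 0.40 ± 0.13 (adjusted p = 0.0277) and 0.50 ± 0.15 (adjusted p = 0.0326). Col14a1, a fibril-associated collagen, was 1.97, 0, 1.87, 2.01 and 1.87 CPM in SS outer medulla at LS and 18.4, 10.9, 19.8, 22.9 and 3.44 CPM at HS21. It rose by 3.24 ± 0.55 (adjusted p = 0.000633) in outer medulla, from a low level, and was not called in cortex (0.11 ± 0.31). Col12a1, its more abundant relative, was not called in either tissue (0.11 ± 0.16 and 0.17 ± 0.32).

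**Figure D2:**
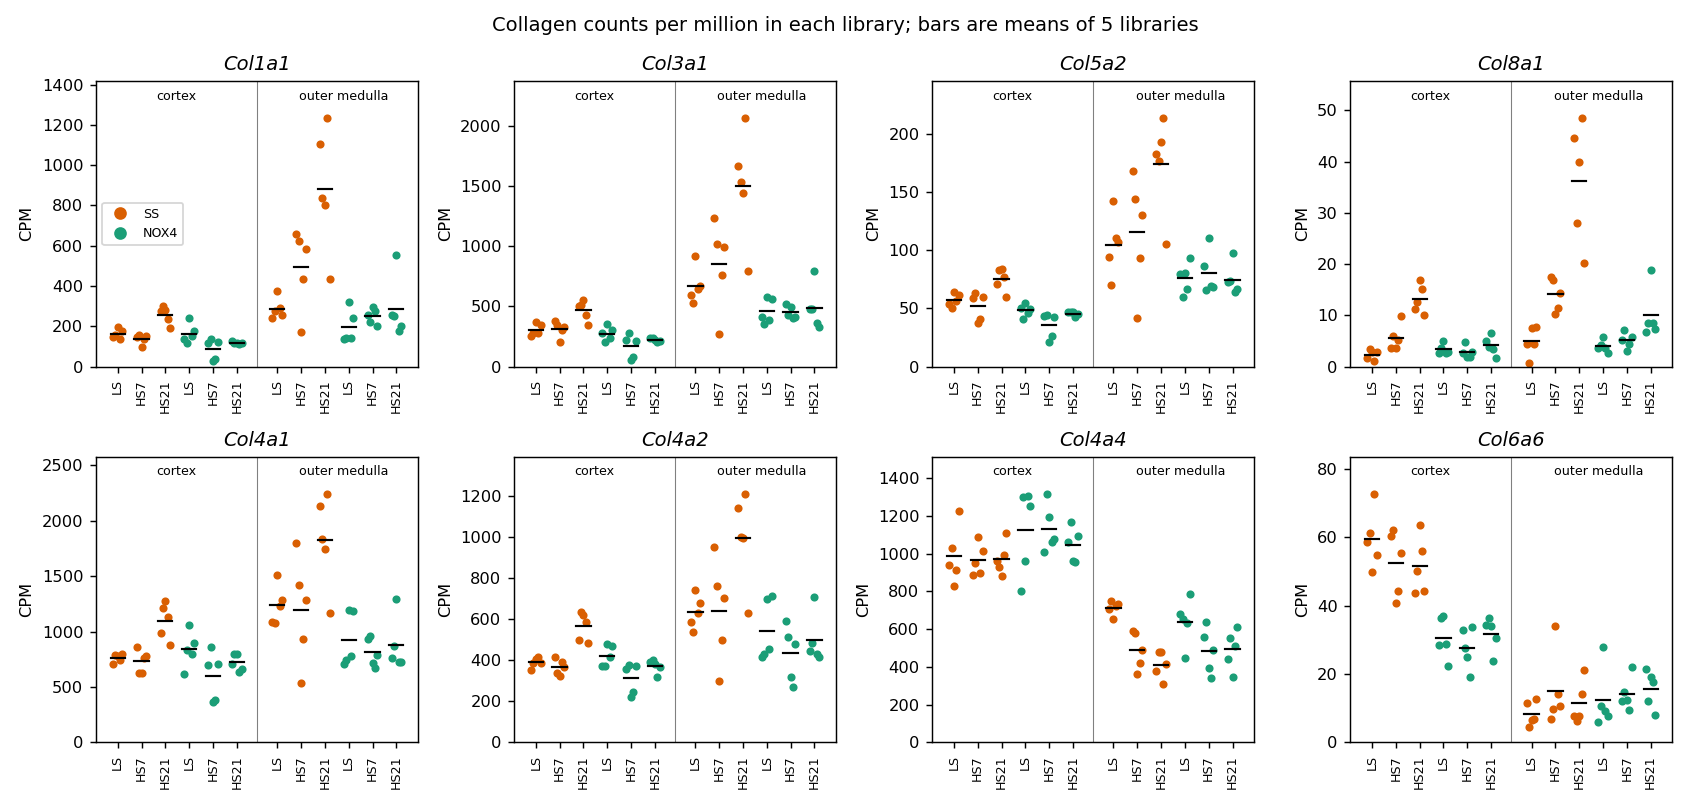
CPM of 8 collagens in each of the 60 libraries; the x axis gives the diet within each tissue, points are libraries coloured by strain and black bars are means of 5. After 21 days of salt the SS points of Col1a1, Col3a1 and Col8a1 stand highest in outer medulla, while those of Col4a4 are lower there than at LS.

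After 7 days of salt fewer members were called in SS. In cortex 1 of 36 members was called higher, Col8a1 at 1.25 ± 0.34 (adjusted p = 0.0498), where 2.25% of all genes were called (1.17% higher). In outer medulla 3 of 35 were higher, against 2.37% of all genes called (1.55% higher): Col8a1 (1.48 ± 0.39, adjusted p = 0.0412), Col14a1 (2.47 ± 0.54, adjusted p = 0.0254) and Col9a1. Col9a1 averaged 1.33 CPM at HS7 and 0.0489 CPM at LS, a level at which a fold is not given. The cortex call was lost without any of SS HS7 replicates 4 and 5 or SS LS replicates 1, 3 and 4. In outer medulla the count of 3 became 1 without SS HS7 replicate 3 or 4 or SS LS replicate 2 or 4, 5 without SS HS7 replicate 1 or SS LS replicate 1, and 6 without SS HS7 replicate 2. Both counts were 0 without the low-complexity libraries, all of which belong to SS at LS or HS7.

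In NOX4 rats no collagen was called at 7 or 21 days of salt in either tissue with edgeR, and neither was any other gene (0% of genes in each of the 4 comparisons). At an unadjusted p under 0.05 stood 2 members in cortex and 3 in outer medulla at HS21, and 14 and 7 at HS7. DESeq2 called 0 at HS21 in both tissues, 0 at HS7 in cortex and 3 at HS7 in outer medulla. The last count was 2 with edgeR without NOX4 HS7 replicate 2 and 3 without NOX4 HS7 replicate 5. The median log2 fold change of the members at HS21 was -0.13 in cortex and 0.04 in outer medulla. Col1a1 in NOX4 outer medulla was 137, 142, 319.5, 143 and 243 CPM at LS and 254, 253, 553, 175 and 204 CPM at HS21. These ranges overlap, HS21 replicate 3 is the highest library, and the log2 fold change was 0.55 ± 0.33 (adjusted p = 1). Col4a4 in NOX4 outer medulla differed by -0.38 ± 0.18 (adjusted p = 1). Col8a1 differed by 1.32 ± 0.39 there, with no overlap between the diets but an adjusted p of 1.

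**Figure D3:**
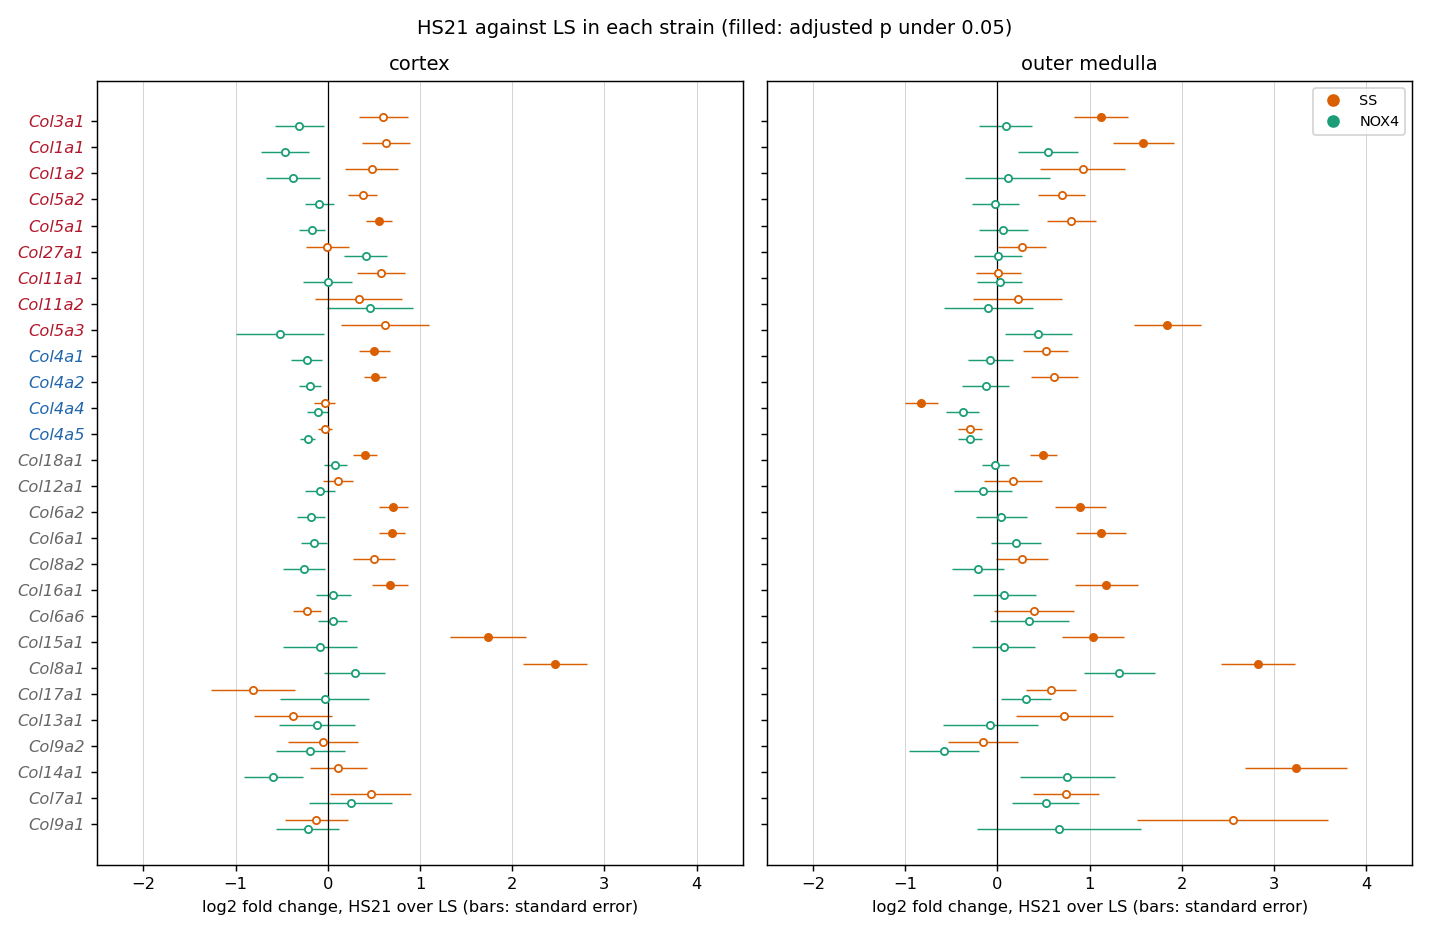
Log2 fold change of HS21 over LS for 28 collagens in cortex (left) and outer medulla (right), with standard errors; orange is SS, green is NOX4, and filled points passed an adjusted p of 0.05. Gene names are red for fibrillar, blue for basement membrane and grey for other members. Filled points occur in SS only, and all lie to the right of 0 except Col4a4 in outer medulla.

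Whether the salt response differed between the strains was tested directly as an interaction, since a call in SS and none in NOX4 does not show it. In cortex 4 of 36 members were called, all with a lower salt fold change in NOX4 than in SS, where 1.08% of all genes were called (0.567% lower and 0.514% higher). They were Col4a2 (-0.70 ± 0.17, adjusted p = 0.0364), Col6a2 (-0.89 ± 0.22, adjusted p = 0.0412), Col6a1 (-0.84 ± 0.20, adjusted p = 0.0361) and Col8a1 (-2.17 ± 0.48, adjusted p = 0.0257). In outer medulla 0 of 35 were called with edgeR (0.0253% of all genes called, 0.0127% in each direction), 11 had an unadjusted p under 0.05 and DESeq2 called 1. The values for Col1a1 (-1.04 ± 0.46, adjusted p = 0.471), Col3a1 (-1.04 ± 0.41, adjusted p = 0.403) and Col14a1 (-2.48 ± 0.74, adjusted p = 0.221) were below 0, as they were in 30 of 35 members, but missed the threshold. The cortex count of 4 fell to 2 without NOX4 HS21 replicate 1, NOX4 LS replicate 1 or SS LS replicate 4. It fell to 1 without NOX4 HS21 replicate 3, 4 or 5, NOX4 LS replicate 5, SS HS21 replicate 2 or SS LS replicate 2. It fell to 0 without NOX4 HS21 replicate 2, NOX4 LS replicate 3 or SS HS21 replicate 3 or 4.

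At 21 days of salt, collagen transcripts were lower in NOX4 than in SS in both tissues. In cortex 9 of 36 members were called lower and 0 higher, where 1% of all tested genes were called (0.665% lower and 0.336% higher). In outer medulla 14 of 35 were lower and 0 higher, against 1.63% of all genes (1.33% lower and 0.304% higher). The median log2 fold change was -0.65 over the cortex members and -1.03 over those of outer medulla, and 0.00 and -0.02 over all genes. These comparisons use the same SS HS21 libraries as the salt comparison in SS. Called lower in both tissues were 8 members: Col1a1, Col3a1, Col5a1 and Col5a2 of the fibrillar collagens, Col4a2 of the basement membrane, and Col6a1, Col6a2 and Col8a1. By class the calls were 4 of 11 fibrillar, 1 of 5 basement membrane and 4 of 20 other members in cortex, and 6 of 10, 2 of 5 and 6 of 20 in outer medulla.

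In NOX4 outer medulla at HS21, Col1a1 was 254, 253, 553, 175 and 204 CPM against the SS values given above. Replicate 3 of NOX4 exceeded the lowest SS library, replicate 5, and all 5 NOX4 libraries lay under the SS mean. The log2 fold change of NOX4 over SS was -1.63 ± 0.33 (adjusted p = 0.0111). Col3a1 was 477, 479.7, 798, 361 and 332 CPM, with the same 2 libraries meeting, and a fold change of -1.63 ± 0.29 (adjusted p = 0.00744). Col5a2, a type V chain, was 72.5, 73.2, 97.8, 64.4 and 66.5 CPM in NOX4 and 183, 177, 193, 213 and 106 CPM in SS. These did not overlap, at -1.24 ± 0.26 (adjusted p = 0.0133). Col1a2 differed about as much (-1.58 ± 0.47, adjusted p = 0.0777) but missed the threshold.

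In NOX4 cortex at HS21, Col1a1 was 129, 119, 119.8, 110.1 and 119 CPM and Col3a1 242, 239, 221, 205 and 211 CPM. Both groups of 5 lay wholly below the SS libraries, at log2 fold changes of -1.10 ± 0.26 (adjusted p = 0.0344) and -1.06 ± 0.27 (adjusted p = 0.0435). Both of these adjusted p-values rose above 0.05 when any 1 library but SS replicate 5 was left out, and the log2 fold changes in those fits lay between -1.13 and -1.001. Col5a2 in cortex was 71.3, 83.3, 84.1, 77.3 and 60.3 CPM in SS and 47.1, 46.7, 46.7, 42.5 and 45 CPM in NOX4, at -0.72 ± 0.16 (adjusted p = 0.0188). The NOX4 libraries at HS21 varied little among themselves, and all lay below the lowest SS library.

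Col4a2 at HS21 was 391, 402, 380.3, 317 and 364 CPM in NOX4 cortex, below all SS libraries, at -0.60 ± 0.12 (adjusted p = 0.0112). In outer medulla it was 443, 483, 707, 431 and 416 CPM against 1142, 1001, 995, 1208 and 628 CPM in SS, at -1.02 ± 0.26 (adjusted p = 0.0381). Col4a1 in outer medulla was 761, 869, 1294, 729 and 725 CPM against 2129, 1839, 1749, 2242 and 1168 CPM, at -1.08 ± 0.25 (adjusted p = 0.0221). For both chains NOX4 replicate 3 exceeded SS replicate 5 and the remaining libraries kept apart. In cortex Col4a1 was 710.1, 799.7, 800.1, 632 and 663 CPM, also below all SS libraries, but its adjusted p was 0.0837. Col4a4 was 443, 552, 346, 509 and 613 CPM in NOX4 outer medulla and 1064, 1166, 960.4, 954 and 1092 CPM in NOX4 cortex. It overlapped with SS in both tissues (0.24 ± 0.18 and 0.11 ± 0.12).

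Among the others, Col6a2 in cortex was 93.5, 82.3, 83.7, 84.9 and 83.6 CPM in NOX4, below all SS libraries, at -0.61 ± 0.15 (adjusted p = 0.0462). In outer medulla it was 91.6, 94.9, 148, 78.6 and 96.8 CPM in NOX4, at -1.21 ± 0.28 (adjusted p = 0.0236). Col6a1 was called in both tissues, at -0.80 ± 0.14 (adjusted p = 0.0075) and -1.42 ± 0.27 (adjusted p = 0.00904). Col12a1 in outer medulla was 334, 298, 416, 283 and 276 CPM in NOX4 and 849.5, 736, 702, 928 and 458 CPM in SS, which did not overlap (-1.21 ± 0.32, adjusted p = 0.049). Col8a1 was 6.85, 8.57, 18.9, 8.49 and 7.35 CPM in NOX4 and 44.7, 28.1, 40.0, 48.5 and 20.3 CPM in SS outer medulla, also without overlap (-1.87 ± 0.38, adjusted p = 0.0111). Col15a1, Col16a1, Col11a1 and Col5a3 were lower too in outer medulla, by -1.42, -1.42, -1.03 and -1.40. Col18a1 did not overlap in outer medulla, at 432, 538, 588, 506 and 545 CPM in NOX4, but its difference of -0.53 ± 0.15 (adjusted p = 0.0633) missed the threshold.

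The counts at HS21 moved with single libraries. In cortex the count of 9 became 2 without SS replicate 3, 4 without SS replicate 2 or NOX4 replicate 4 or 5, and 5 without SS replicate 4. In outer medulla the count of 14 became 1 without NOX4 replicate 4, 2 without NOX4 replicate 5, 3 without SS replicate 4 and 4 without NOX4 replicate 1. It became 6 without SS replicate 1 or 2 or NOX4 replicate 2 and 7 without SS replicate 3. Fits of the 2 compared groups alone called 22 members in cortex and 24 in outer medulla. With a score of proximal tubule segment 3 markers as a covariate, 4 of the 9 members were called in cortex (Col4a2, Col5a1, Col6a1 and Col8a1) and 0 in outer medulla. The log2 fold changes of the 14 outer medulla members then lay between -1.73 (Col8a1) and -0.70 (Col11a1), with Col1a1 at -1.39, Col3a1 at -1.31 and Col6a1 at -1.04. Single calls were lost under up to 11 of 17 alternatives, which was reached by Col3a1 and Col6a2 in cortex and by Col4a2, Col5a3 and Col12a1 in outer medulla. Under each alternative tried, all members called in the reported fit kept log2 fold changes below 0, and Col5a1 and Col6a1 in cortex were called under all 17 alternatives.

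**Figure D4:**
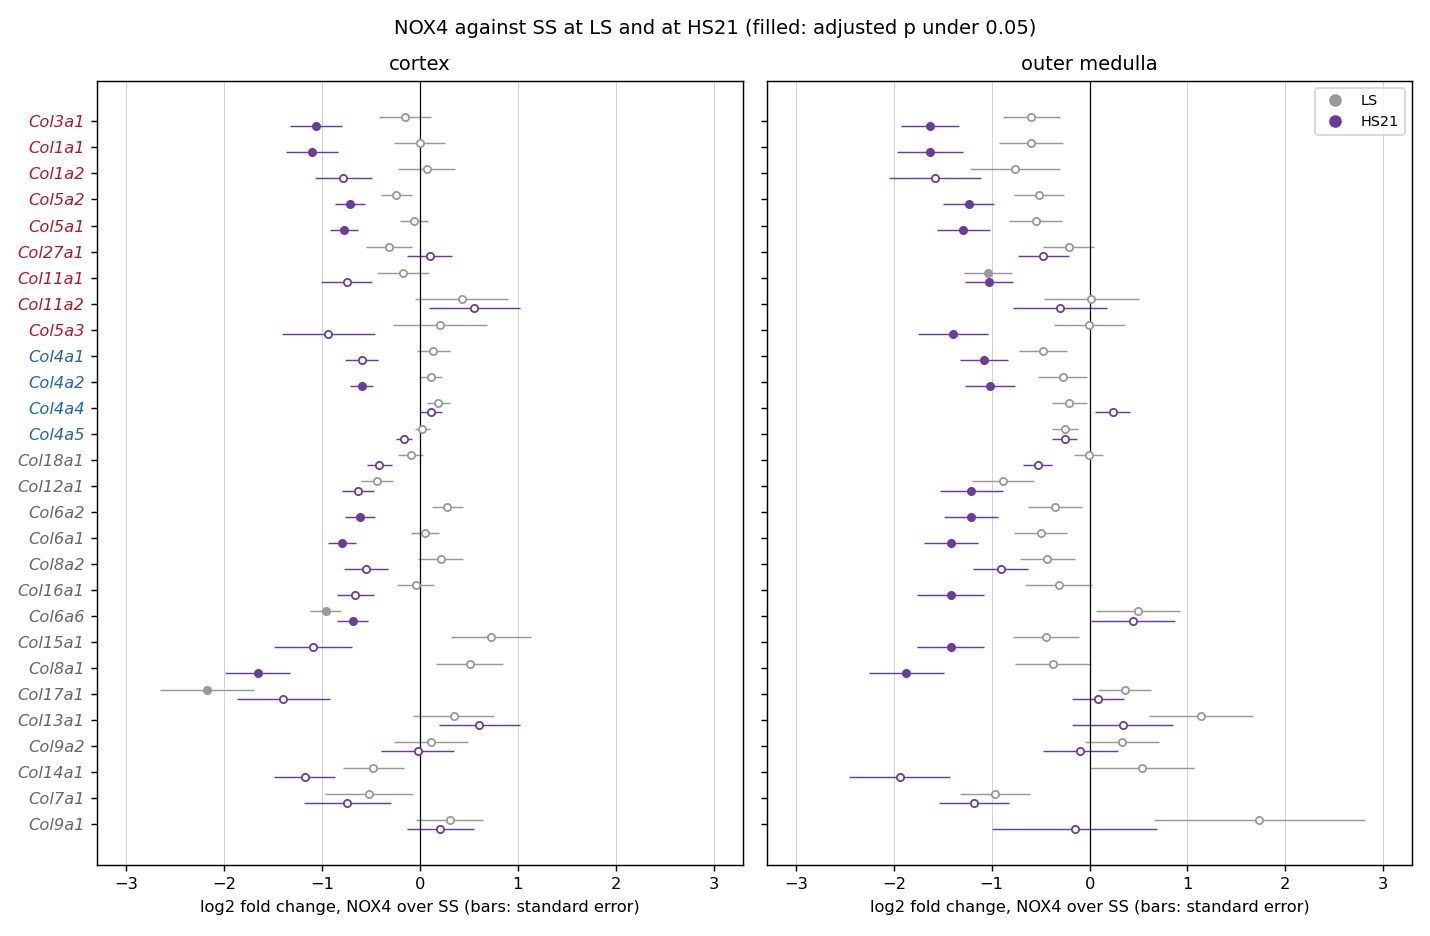
Log2 fold change of NOX4 over SS for 28 collagens in cortex (left) and outer medulla (right), with standard errors; grey is LS, purple is HS21, and filled points passed an adjusted p of 0.05. At HS21 most points lie left of 0. At LS only Col6a6 and Col17a1 in cortex and Col11a1 in outer medulla are filled.

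At LS few collagens were called between the strains. In cortex at LS 2 members were lower in NOX4 and 1 higher (22% of all genes called, 10.3% lower and 11.7% higher), and the members' median was 0.04. Col6a6 was 58.7, 61.4, 49.9, 72.7 and 54.7 CPM in SS and 28.6, 36.4, 36.8, 28.9 and 22.3 CPM in NOX4, which did not overlap, at -0.96 ± 0.16 (adjusted p = 0.000172). Col17a1, a transmembrane collagen of epithelial attachment, was 2.04, 7.23, 9.61, 8.95 and 2.33 CPM in SS and 1.3, 1.07, 2.28, 0.813 and 1.18 CPM in NOX4, at -2.18 ± 0.48 (adjusted p = 0.00194). SS replicates 2, 3 and 4, which hold the highest Col17a1 values, are the low-complexity libraries of their group. Without the low-complexity libraries the Col17a1 difference was -0.72 (adjusted p = 0.162). Col22a1 was higher in NOX4, at 0.817 ± 0.401 against 0.184 ± 0.197 CPM (SD, n = 5), a level close to the detection limit. In outer medulla at LS 1 of 35 was called (14.8% of all genes, 6.05% lower and 8.8% higher), Col11a1, a minor fibrillar chain, at -1.04 ± 0.25 (adjusted p = 0.0072). That count became 2 without SS LS replicate 1, 2 or 5, and 6 in a fit of the compared groups alone. Summed FPKM of all collagens in outer medulla at LS averaged 961 in SS (831 to 1193). In NOX4 it averaged 727 (617 to 910), so the ranges overlapped, and these sums carry no test.

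At HS7 the cortex held 10 lower and 1 higher member of 36 (17.4% of all genes called, 7.77% lower and 9.61% higher) and outer medulla 6 lower and 1 higher of 35 (9.61% in all, 4.39% lower and 5.23% higher). The higher members were Col27a1 in cortex (0.75 ± 0.23, adjusted p = 0.0268) and Col11a2 in outer medulla (1.99 ± 0.49, adjusted p = 0.0139). In cortex, NOX4 replicates 3 and 4 had the lowest Col3a1 of their group: Col3a1 was 224, 280.2, 52.9, 82.7 and 217 CPM in the 5 NOX4 libraries and 377, 345, 208, 303 and 329.7 CPM in SS. The library names of NOX4 replicates 3 and 4 stand outside the number sequence of the other cortex libraries. Without both of these replicates 2 members were called instead of 11. The count was 3 without NOX4 replicate 3 or SS replicate 1 or 2, 4 without NOX4 replicate 4 and 7 without SS replicate 5. Col6a6 at HS7 was 60.5, 62.3, 40.7, 44.2 and 55.5 CPM in SS cortex and 32.9, 27.6, 24.9, 19.2 and 33.9 CPM in NOX4, again without overlap (-0.91 ± 0.16, adjusted p = 0.000462).

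In outer medulla at HS7 the SS libraries spread widely. Col1a1 was 659.6, 624, 169.6, 433 and 585 CPM in SS and 259, 221, 296, 275 and 202 CPM in NOX4, at -1.02 ± 0.33 (adjusted p = 0.0469). SS replicate 3, the library with a high proximal tubule marker sum, had the lowest Col1a1, Col3a1, Col4a1 and Col12a1 of its group. Without it 16 members were called instead of 7. NOX4 replicates 3 and 4 stood apart from their group in tubule markers: thick ascending limb markers summed to 4947 and 5328 CPM in them and to between 11570 and 14400 CPM in the other 3 libraries, and markers of collecting duct principal cells to 2965 and 3341 CPM against 1135 to 1982 CPM. The part of these differences in the collagen counts was not tested. The count was 0 without NOX4 replicate 3 or 4, 1 without SS replicate 2, 2 without SS replicate 1, and 4 without NOX4 replicate 2 or SS replicate 4 or 5.

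Averaged over the diets, 16 of 36 members were lower and 2 higher in NOX4 cortex (31.7% of all genes called, 15% lower and 16.7% higher), and 19 of 35 were lower and 0 higher in NOX4 outer medulla (30.4%, with 15.1% lower and 15.4% higher). The members' medians were -0.30 and -0.58, beside 0.00 and -0.02 over all genes. The higher members in cortex were Col4a4 (0.18 ± 0.07, adjusted p = 0.0381) and Col13a1 (0.64 ± 0.24, adjusted p = 0.0435). Their calls were lost under 21 and 19 of 37 alternatives, where the log2 values ran from 0.11 to 0.21 for Col4a4 and from 0.52 to 0.98 for Col13a1. Col4a4 was not called in outer medulla (-0.01 ± 0.10). The smallest p in cortex belonged to Col6a6 (-0.85 ± 0.09, adjusted p = 2.65e-07), whose 15 NOX4 libraries all lay below the 15 SS libraries. With the segment 3 score as a covariate the counts were 7 in cortex and 6 in outer medulla.

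A test of strain by tissue called 3 of 38 members, 2 with a higher value in outer medulla (11% of all genes, 7.52% higher and 3.48% lower). Col6a6 (1.14 ± 0.27, adjusted p = 0.0028) was lower in NOX4 cortex and was not called in outer medulla, where it was 7.65, 6.25, 7.84, 14.3 and 21.2 CPM in SS and 21.4, 12, 19.1, 17.6 and 8.14 CPM in NOX4 at HS21. Col17a1 (1.96 ± 0.32, adjusted p = 1.98e-05) likewise was called lower in cortex and not in outer medulla. Col6a1 (-0.52 ± 0.18, adjusted p = 0.0482) was lower in NOX4 by more in outer medulla than in cortex. Without replicate number 3 in all groups 10 members were called, and with the segment 3 score as a covariate 0.

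Summed per gene length over each class, fibrillar collagens in SS outer medulla reached 281 ± 63 FPKM at LS, 369 ± 158 at HS7 and 623 ± 188 at HS21. In NOX4 outer medulla the sums were 185 ± 50.1, 199 ± 28.8 and 210.0 ± 82.9 FPKM. Basement membrane collagens summed to 419 ± 45.5 FPKM in SS outer medulla at LS and 545 ± 112 at HS21, and to 329.6 ± 68.4 and 296 ± 54.7 in NOX4. The ratio of fibrillar to basement membrane sums in SS outer medulla was 0.64, 0.582, 0.793, 0.677 and 0.628 at LS and 1.19, 1.12, 1.14, 1.26 and 0.894 at HS21. Every SS library at HS21 was above every SS library at LS. In NOX4 outer medulla it was 0.577, 0.511, 0.636, 0.505 and 0.561 at LS and 0.738, 0.688, 0.902, 0.592 and 0.543 at HS21, which overlap. In cortex the group means stayed between 0.32 and 0.53. These sums are descriptions and carry no test.

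**Figure D5:**
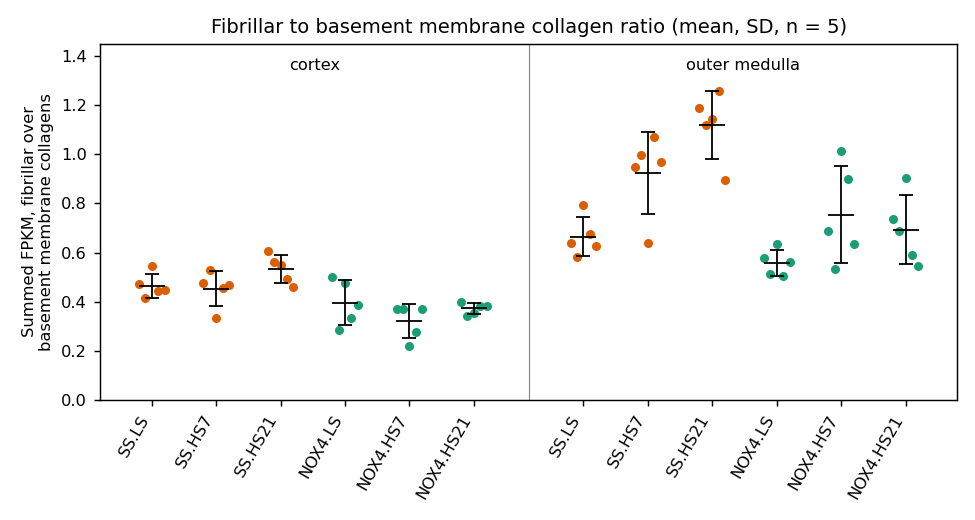
Ratio of summed FPKM of fibrillar to basement membrane collagens in each library, by strain and diet in cortex (left) and outer medulla (right); points are libraries, horizontal marks and bars are mean and SD of 5. SS outer medulla at HS21 has the highest mean, 1.12, and all cortex libraries lie under 0.61.

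Genes that process collagen were counted from lists of pathway members. At HS21 in outer medulla 6 of 14 tested genes of propeptide cleavage and cross-linking were lower in NOX4 and 0 higher, where 1.33% of all genes were lower and 0.304% higher. They included Adamts2, which trims procollagen (-1.77 ± 0.34, adjusted p = 0.00921), the lysyl oxidase Lox (-1.55 ± 0.35, adjusted p = 0.0216) and the type IV cross-linker Pxdn (-1.20 ± 0.27, adjusted p = 0.0178). In cortex, where 0.665% of all genes were lower and 0.336% higher, 3 of 13 were lower: Loxl1, Pxdn and Lox (-1.30 ± 0.26, adjusted p = 0.0109). Of genes of folding and modification 2 of 18 were lower in outer medulla, the collagen chaperone Serpinh1 (-0.78 ± 0.16, adjusted p = 0.0137) and Fkbp10, and 0 of 18 in cortex. Of breakdown enzymes and inhibitors 5 of 14 were lower in outer medulla, among them the gelatinase Mmp2 (-1.40 ± 0.27) and its inhibitors Timp1 (-1.35 ± 0.31) and Timp2, and 0 of 12 in cortex. Collagen receptors (0 of 8 and 0 of 6) were not called, and of basement membrane partners 1 of 15 (Lamb3) was called in outer medulla and 0 of 15 in cortex. Of fibrogenic signals 3 of 19 were lower in each tissue, with Ltbp2, a binding protein of the latent TGF-beta family, in both (-1.74 ± 0.25 in cortex, -1.45 ± 0.17 in outer medulla).

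In SS at HS21 against LS, 8.42% of all genes were higher and 8.04% lower in cortex, and 5.29% and 4.56% in outer medulla. Propeptide cleavage and cross-linking had 5 of 13 higher in cortex and 4 of 14 in outer medulla, and 0 lower in both. Fibrogenic signals had 7 of 19 higher in cortex, with Ltbp2 at 2.09 ± 0.25 (adjusted p = 5.98e-06), and 2 of 19 in outer medulla. Folding and modification had 3 of 18 higher and 1 lower in cortex and 5 of 18 higher in outer medulla, with Serpinh1 higher in both. Breakdown enzymes and inhibitors had 4 of 12 higher and 0 lower in cortex, and 3 of 14 higher and 1 lower (Timp3) in outer medulla. Collagen receptors had 2 of 6 and 1 of 8 higher and 0 lower. Basement membrane partners went both ways, with 1 of 15 higher and 1 lower in each tissue (Lamb1 and Lama5 in cortex, Lamb3 and Npnt in outer medulla). Loxl1, Timp2, Timp3, the laminins, Npnt and the markers named for the salt comparison in SS were named after their values were seen, and the other list genes by the smallest p averaged over diets.

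Markers of several cell types differed between the strains alongside the collagens. At HS21 the summed fibroblast and stroma markers (12 genes) ran from 1044 to 1404 CPM in SS cortex and from 777 to 870.2 CPM in NOX4 cortex, and from 1575 to 2597 against 1113 to 1519 CPM in outer medulla. Of 11 tested, 4 were lower in NOX4 in cortex and 6 in outer medulla, and Dcn and Pdgfra, a stromal proteoglycan and a fibroblast receptor, were lower in both. Smooth muscle markers (8 genes) summed to 507 to 959.7 CPM in SS and 355 to 497 CPM in NOX4 outer medulla, with 3 of 8 lower. Podocyte markers summed to 598 to 702 CPM in SS and 817 to 874 CPM in NOX4 cortex, with 3 of 9 higher, and proximal tubule segment 3 markers to 807 to 5545 CPM in SS and 3504 to 7805 CPM in NOX4 outer medulla. Macrophage markers had 0 of 7 called in cortex and 1 of 7 lower in outer medulla at HS21. Averaged over diets, where 15% of all genes were lower and 16.7% higher in NOX4 cortex and 15.1% and 15.4% in NOX4 outer medulla, 8 of 11 stromal markers were lower in NOX4 cortex and 9 of 11 in NOX4 outer medulla, and 7 of 9 podocyte markers were higher in NOX4 cortex and 4 of 9 lower in NOX4 outer medulla. Of the segment 3 markers 5 of 7 were lower in NOX4 cortex, and 6 of 7 were higher and 1 lower in NOX4 outer medulla. Of the basement membrane partners, laminins, nidogens and the like, 7 of 15 were lower and 2 higher in NOX4 cortex and 11 of 15 were lower in NOX4 outer medulla. None of the 12 stromal markers was at 0 in any HS21 library. Their part in the collagen differences was not tested.

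The authors' deposited table gives its own tests of the same libraries, with a tool not given in the sources used here. For NOX4 against SS at HS21 the authors' deposited table lists 25 of 43 members lower in cortex and 24 in outer medulla at an adjusted p under 0.05, and 0 higher, where 9.38% and 25.6% of all genes pass. For Col1a1 its log2 fold changes are -1.10 in cortex and -1.60 in outer medulla. For HS21 against LS in SS the authors' deposited table lists 14 members higher in cortex (15.1% of genes) and 16 higher and 2 lower in outer medulla (13%). For NOX4 against SS at LS the authors' deposited table lists 3 members lower in cortex (16.6%) and 9 lower in outer medulla (17.1%). At HS7 the authors' deposited table lists 3 lower in cortex (7.1%) and 2 lower and 1 higher in outer medulla (1.1%), fewer than the 11 and 7 called here. For HS21 against LS in NOX4 the authors' deposited table lists 1 lower in cortex (0.177%) and 1 higher in outer medulla (0.205%), where none was called here. For HS7 against LS the authors' deposited table lists 1 higher in SS outer medulla (0.304%) and 0 in SS cortex (0.542%) and in both tissues of NOX4 (0.0589% and 0.265%).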

How the data were processed

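Per the submitters' processing notes, the authors used HISAT2 2.0.5, StringTie 1.3.3b and featureCounts 1.5.0-p3; the genome build is not given in the sources used here. The deposited table holds whole-number read counts per gene, FPKM values, and the authors' log2 fold changes with adjusted p-values for 14 comparisons, per the file headers. Tests used the deposited counts in edgeR 4.0.16 (R 4.3.3, limma 3.58.1): TMM normalization, filterByExpr, a quasi-likelihood test over the 12 groups, split by tissue, and Benjamini-Hochberg adjustment over all genes tested, with calls at an adjusted p under 0.05. The SE of a log2 fold change was derived from the test, as its absolute value over the square root of the F statistic. CPM values use TMM over all 60 libraries. Levels were compared between genes only by deposited FPKM. Library totals ran from 11.5 to 29.6 M counts. DESeq2 1.42.0, its size factors within edgeR, no filter on low counts, a fit of the compared groups alone, a replicate block, a segment 3 marker score, omission of the low-complexity libraries and omission of each library were tried as alternatives. Omission of NOX4 HS7 cortex replicates 3 and 4 together was chosen after seeing the data. The scripts were tested on simulated data. No 2 libraries of a group agreed within sampling noise (chi-square per gene at least 6.24).

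The members, the gene lists and the low-complexity threshold (fewer than 16500 genes at 10000000 counts) were chosen with earlier results of these data known. Values in every library were given for the 3 members of each class with the highest FPKM and for those with the smallest p in NOX4 against SS averaged over diets. Col8a1, Col14a1 and Col17a1 were also shown by library, outside this rule and with their fold changes known. Any called member could be named, and up to 4 others with the largest fold changes. From each list up to 4 called genes with the smallest p averaged over diets were named, and Nox4 as a check of the labels. Some list genes are not reported here by name. Promoter sequences came from RefSeq (GRCr8).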

Additional observations from a re-analysis of the deposited data

Results flagged for a closer look

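Single libraries stood apart from the other 4 of their group in 10 of 132 sets of 5 checked (11 genes in 12 groups), by Dixon's criterion at 0.71, which chance meets in about 1 of 20 sets. Replicate 3 of NOX4 HS21 outer medulla was the highest for Col4a1 (1294 CPM), Col4a2 (707 CPM), Col1a1 (553 CPM), Col6a2 (148 CPM) and Col5a2 (97.8 CPM). Col18a1 was lowest in SS HS21 cortex replicate 5 (288 CPM), Col6a2 was lowest in SS LS cortex replicate 2 (53.0 CPM) and highest in NOX4 HS21 cortex replicate 1 (93.5 CPM). Col6a6, which is higher in cortex, was highest in SS HS7 outer medulla replicate 3 (34.0 CPM), the library with 4290 CPM of proximal tubule segment 1 and 2 markers, and in NOX4 LS outer medulla replicate 3 (27.9 CPM).

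The salt response at 21 days differed between the strains in cortex, by edgeR's interaction test, for Col4a2 (-0.70), Col6a2 (-0.89), Col6a1 (-0.84) and Col8a1 (-2.17, log2 scale, NOX4 minus SS). Of 27 alternatives the call was lost under 15 for Col4a2, 15 for Col6a1, 18 for Col6a2 and 5 for Col8a1. The test of strain by tissue called Col6a1 (-0.52), Col6a6 (1.14) and Col17a1 (1.96, log2 scale, outer medulla minus cortex), where 11% of all genes were called. Of 12 alternatives the call was lost under 6 for Col6a1, 1 for Col6a6 and 1 for Col17a1. The values ran from -0.673 to -0.099 for Col6a1, from 0.148 to 1.32 for Col6a6 and from 1.036 to 2.135 for Col17a1.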

How the results depend on the processing

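For members called in the reported fit of a comparison, 2515 values under the alternatives kept their direction and stayed under the threshold. Another 550 kept the direction only, and 0 changed direction. Members not called were not counted. The alternatives reuse most of the libraries on which these members were called, so a kept direction is a weak check. Counts of called members moved by more than 1.5 times as follows, and the causes were not tested. With DESeq2 the count for NOX4 against SS was 5 in cortex at LS (3 reported) and 3 in outer medulla at LS (1). HS7 against LS in outer medulla had 9 in SS (3) and 3 in NOX4 (0), and the interaction in outer medulla had 1 (0). With DESeq2 size factors and with no filter on low counts, HS7 against LS in SS cortex had 0 (1). In fits of the compared groups alone, NOX4 against SS had 1 (11) and 22 (9) in cortex at HS7 and HS21, and 6 (1), 0 (7) and 24 (14) in outer medulla at LS, HS7 and HS21. HS7 against LS in SS then had 0 in both tissues (1 and 3), and the interaction 10 in cortex (4) and 1 in outer medulla (0). With the segment 3 score, NOX4 against SS had 7 (18) averaged over diets, 1 (3) at LS and 4 (9) at HS21 in cortex. In outer medulla it had 6 (19), 0 (1), 4 (7) and 0 (14) averaged and at LS, HS7 and HS21. With it HS7 against LS in SS had 0 in both tissues, the interaction in cortex 2 (4) and strain by tissue 0 (3). Without the low-complexity libraries NOX4 against SS had 7 (11) and 16 (9) in cortex at HS7 and HS21 and 2 (1) and 11 (7) in outer medulla at LS and HS7. HS7 against LS in SS had 0 in both tissues, the interaction in cortex 1 and strain by tissue 10. Without both NOX4 HS7 cortex replicates 3 and 4, NOX4 against SS in cortex at HS7 had 2 and strain by tissue 7. With the replicate block the interaction in cortex had 1 (4) and strain by tissue 6 (3), and no other count moved by over 1.5 times. For same-numbered libraries of different groups in a tissue the median correlation of their deviations was -0.0029, with 26 of 150 pairs over 0.1. For other numbers it was 0.000672, with 92 of 600 over 0.1. Between cortex and outer medulla of the same strain, diet and number it was 0.0221, with 4 of 30 over 0.1. For other numbers there it was -0.00248, with 12 of 120 over 0.1. These values cannot show whether libraries share an animal, and the reported tests treated all libraries as independent.

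Leaving out 1 library in turn gave counts for NOX4 against SS of 14 to 19 (cortex) and 17 to 22 (outer medulla) averaged over diets. In cortex they were 2 to 4 at LS, 3 to 12 at HS7 and 2 to 13 at HS21, and in outer medulla 1 to 2, 0 to 16 and 1 to 19. HS7 against LS in SS gave 0 to 1 in cortex and 1 to 6 in outer medulla, and HS21 against LS 6 to 10 and 6 to 13. HS7 against LS in NOX4 outer medulla gave 0 to 3, and the interaction in cortex 0 to 4. Leaving out 1 replicate number gave 30 to 32 for outer medulla against cortex and 2 to 10 for strain by tissue. Called under all 17 alternatives were Col5a1 and Col6a1 for NOX4 against SS in cortex at HS21 and Col6a6 in cortex at LS (and under all 18 at HS7). Averaged over diets they were Col3a1, Col5a1, Col5a2, Col6a5, Col6a6 and Col8a1 in cortex (37 alternatives) and Col1a1, Col3a1, Col8a1, Col11a1 and Col15a1 in outer medulla (36). For HS21 against LS in SS they were Col4a2, Col6a1, Col6a2 and Col8a1 in cortex, and Col1a1, Col4a4, Col5a3, Col6a1, Col8a1 and Col14a1 in outer medulla. Members at a few CPM rest on few counts at these depths.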
